A study of Mus musculus with 90 samples.

Results

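The comparison described here asked what a glucagon receptor antibody did to the liver transcriptome once protein kinase A (PKA) had been activated by other means. It set 10 liver samples from mice given the Prkar1a knockdown vector and the Gcgr antibody against 10 from mice given the same vector and a control antibody. These 20 samples, taken by their labels, are part of 90 in the study, and 40 of those belong to the experiment on PKA activation. All 40 samples carried an AAV8 vector, a virus that in mice delivers genes mainly to hepatocytes, and an antibody. Prkar1a KD denotes the AAV8 vector with a short hairpin RNA against Prkar1a, and Control AAV the control vector. Gcgr mAb is the antibody that blocks the glucagon receptor, and Control mAb the control antibody. The 4 groups of 10 are therefore Control AAV + Control mAb, Control AAV + Gcgr mAb, Prkar1a KD + Control mAb and Prkar1a KD + Gcgr mAb. The labels state no strain, age, sex, feeding state, dose or time after injection. They number the samples but do not tie each number to its own animal, and the p-values rest on the spread among samples as labelled.

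Glucagon acts on hepatocytes through its receptor GCGR, which couples to the stimulatory G protein encoded by Gnas and raises cyclic AMP. Cyclic AMP binds the regulatory subunits of PKA and frees the catalytic subunits, which raise the transcription of genes for amino acid breakdown, urea production and glucose synthesis. Prkar1a encodes a regulatory subunit, and its loss leaves catalytic subunits active without a hormone signal. The antibody acts at the top of this route and the knockdown near its end.

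Total counts per library ran from 8870340 to 19481413 over the 40 libraries. Hepatocyte markers dominated every library: 12 of them summed to between 49600 and 79800 CPM (counts of a gene scaled to the size of its library) in the Prkar1a KD + Gcgr mAb group and to between 50500 and 67200 CPM in Prkar1a KD + Control mAb. Replicate 2 of Prkar1a KD + Gcgr mAb stood apart. It had the lowest depth of all, the lowest score of the Prkar1a KD libraries on the first principal component (18.1, against 24.4 to 44.5 for the rest of its group and 37.4 to 48.4 for Prkar1a KD + Control mAb), and 12 skeletal muscle genes, chosen after values were seen, summed to 1050 CPM against at most 2.84 CPM in the rest of its group. Replicate 2 of Control AAV + Gcgr mAb also stood apart, with Kupffer cell and macrophage markers summing to 786 CPM against at most 414 CPM in the rest of its group.

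The knockdown was present in every Prkar1a KD library. Prkar1a (chromosome 11, 109649023 to 109669663, GRCm38) stood at a lowest, median and highest level of 97.8, 122 and 135 CPM in Control AAV + Control mAb. It stood at 28.6, 32.8 and 35.1 CPM in Prkar1a KD + Control mAb and at 30.2, 32.7 and 41.4 CPM in Prkar1a KD + Gcgr mAb. The knockdown groups lay wholly below the control group, and with Control mAb the log2 fold change of the knockdown was -1.94 (edgeR quasi-likelihood test, adjusted p = 3.1e-27). The 2 knockdown groups overlapped, and the antibody changed Prkar1a by a log2 fold change of 0.07 (95% interval -0.04 to 0.19, unadjusted p = 0.214). The knockdown reached by both compared groups thus differed by less than their spread.

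The transcript of the antibody's target was not called either. Gcgr, the glucagon receptor, ranged from 108 to 139 CPM (median 127) with Control mAb and from 119 to 148 CPM (median 131) with Gcgr mAb on the knockdown. Its log2 fold change was 0.07 (95% interval -0.06 to 0.20, unadjusted p = 0.298). The antibody binds protein, so this transcript does not check that it was given. Gnas, encoding the stimulatory G protein, differed by 0.06 (95% interval -0.09 to 0.20). The catalytic subunit genes Prkaca and Prkacb differed by 0.02 (-0.13 to 0.17) and 0.06 (-0.09 to 0.20). Prkar2a, a regulatory subunit of the other PKA type, differed by 0.12 (-0.09 to 0.33), and Pkig, a PKA inhibitor, by 0.12 (-0.10 to 0.33). Prkar1b was too low to be tested. Pkia, encoding another PKA inhibitor, gave the largest value of this group, 0.81 (0.14 to 1.48, unadjusted p = 0.0187), and it rested on replicate 2 of Prkar1a KD + Gcgr mAb, at 10.1 CPM against 0.842 to 1.45 CPM in the other 9. Without that library the value was 0.08.

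Across all genes, no transcript passed the test for an antibody effect on the Prkar1a knockdown. Of 12847 genes tested with edgeR's quasi-likelihood test and Benjamini-Hochberg adjustment, 0 were called at an adjusted p under 0.05 (percent called: 0), and the smallest adjusted p was 0.447. An unadjusted p under 0.05 was reached by 846 genes (6.59%), 474 of them higher with Gcgr mAb (3.69%) and 372 lower (2.9%). DESeq2 and limma-voom also called 0 genes, with 902 and 790 genes at an unadjusted p under 0.05. The levels of the Gcgr mAb and Control mAb groups overlapped for all 12847 genes. The same antibody contrast without the knockdown called 1052 genes (8.19%), of which 375 rose (2.92%) and 677 fell (5.27%). There 60 genes had groups that did not overlap. That contrast shares no sample with the one on the knockdown, and both have 10 libraries per group. The median 95% interval was 0.21 to either side of the log2 fold change in both. All 40 libraries shared 1 estimate of the spread, so this likeness does not show equal precision in the 2 settings. In fits of each setting's 20 libraries alone, 1209 of 12331 genes on the knockdown reached an unadjusted p under 0.05. With Control AAV 2454 of 12361 did.

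**Figure D1:**
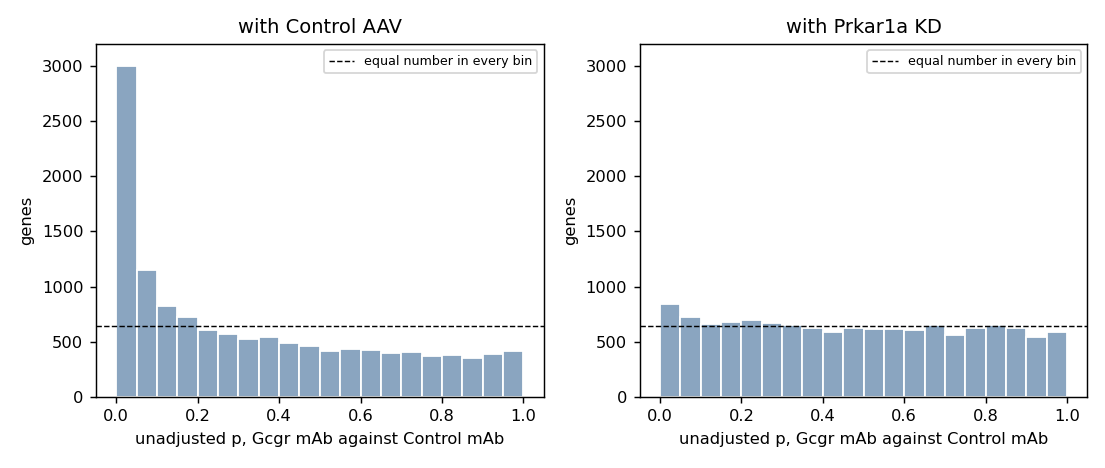
Number of genes (y axis) by unadjusted p-value of Gcgr mAb against Control mAb in 20 equal bins (x axis), with Control AAV on the left and Prkar1a KD on the right; the dashed line is an equal number in every bin. With Control AAV 3005 genes lie under 0.05. With Prkar1a KD 846 do, above the line at 642.4, and the next bin holds 723. The other bars there hold 546 to 695.

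The 95% interval of the antibody's effect on the knockdown lay within 1.5-fold in either direction for 10228 of the 12847 genes (79.6%) and within 2-fold for 12175 (94.8%). Of the 1052 genes that the antibody changed with Control AAV, 891 had an interval within 1.5-fold on the knockdown and 995 within 2-fold. The standard error behind these intervals was derived from the test statistic and rests on the spread shared by all 40 libraries.

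Many genes of amino acid breakdown fell with the antibody and Control AAV, and none was called when the antibody was given on the knockdown. Their values there leaned upward, with 48 of 59 positive. Of the 59 tested members of this list 24 fell and 0 rose with Control AAV, against 5.27% and 2.92% of all genes. On the knockdown 0 were called, the members' log2 fold changes ran from -0.13 to 0.31 and their median was 0.07, against -0.003 for all genes tested. The interaction, which tests the difference between the antibody's effects with and without the knockdown, was called for 19 of the 59, all positive. Over all genes the interaction was called for 524 (4.08%), 352 positive (2.74%) and 172 negative (1.34%).

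Got1 (chromosome 19, 43499752 to 43524605), the cytosolic aspartate aminotransferase, showed this most plainly. It stood at a lowest, median and highest level of 114, 156 and 206 CPM in Control AAV + Control mAb and of 26.1, 33.9 and 44.4 CPM in Control AAV + Gcgr mAb. On the knockdown it stood at 608, 728 and 858 CPM with Control mAb and at 546, 711 and 817 CPM with Gcgr mAb. The antibody groups did not overlap with Control AAV and overlapped almost fully on the knockdown. The log2 fold change was -2.22 ± 0.10 (SE, n = 10 per group, adjusted p = 2.27e-20) with Control AAV and -0.05 (95% interval -0.24 to 0.14, unadjusted p = 0.6) on the knockdown, and the interaction was 2.17 ± 0.14 (SE, adjusted p = 4.46e-15).

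Gls2, the liver glutaminase that releases ammonia from glutamine, ranged from 217 to 327 CPM (median 281) with both controls and from 63.6 to 138 CPM (median 93.9) with Gcgr mAb alone. On the knockdown it ranged from 892 to 1300 CPM (median 1150) with Control mAb and from 908 to 1250 CPM (median 1190) with Gcgr mAb. Every knockdown library with the antibody was thus above every library without the knockdown. The antibody's log2 fold change was -1.56 with Control AAV (adjusted p = 1.2e-14) and 0.01 on the knockdown (95% interval -0.19 to 0.21), with an interaction of 1.57 (adjusted p = 3.74e-10).

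Sds, serine dehydratase, had medians of 89.9 CPM (64.5 to 161) with both controls, 36.7 CPM (12.7 to 56.2) with Gcgr mAb alone, 231 CPM (168 to 331) with the knockdown alone and 219 CPM (187 to 400) with both. The interaction of 1.63 passed the test (adjusted p = 0.000357), while the effect on the knockdown was 0.13 (95% interval -0.27 to 0.53). Tat, tyrosine aminotransferase, had medians of 558 CPM (347 to 788), 309 CPM (196 to 444), 3200 CPM (2830 to 3590) and 3390 CPM (2480 to 4000) in the same order of groups. Its interaction was 0.86 (adjusted p = 0.00221) and its effect on the knockdown 0.06 (-0.19 to 0.30). Oat, ornithine aminotransferase, had an interaction of 1.80 (adjusted p = 0.000123) and Gnmt, which methylates glycine, one of 0.71 (adjusted p = 0.0193). On the knockdown Oat ranged from 2160 to 2860 CPM with Control mAb and from 2440 to 3440 CPM with Gcgr mAb. These enzymes share a picture of a fall without the knockdown and overlapping groups with it.

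**Figure D2:**
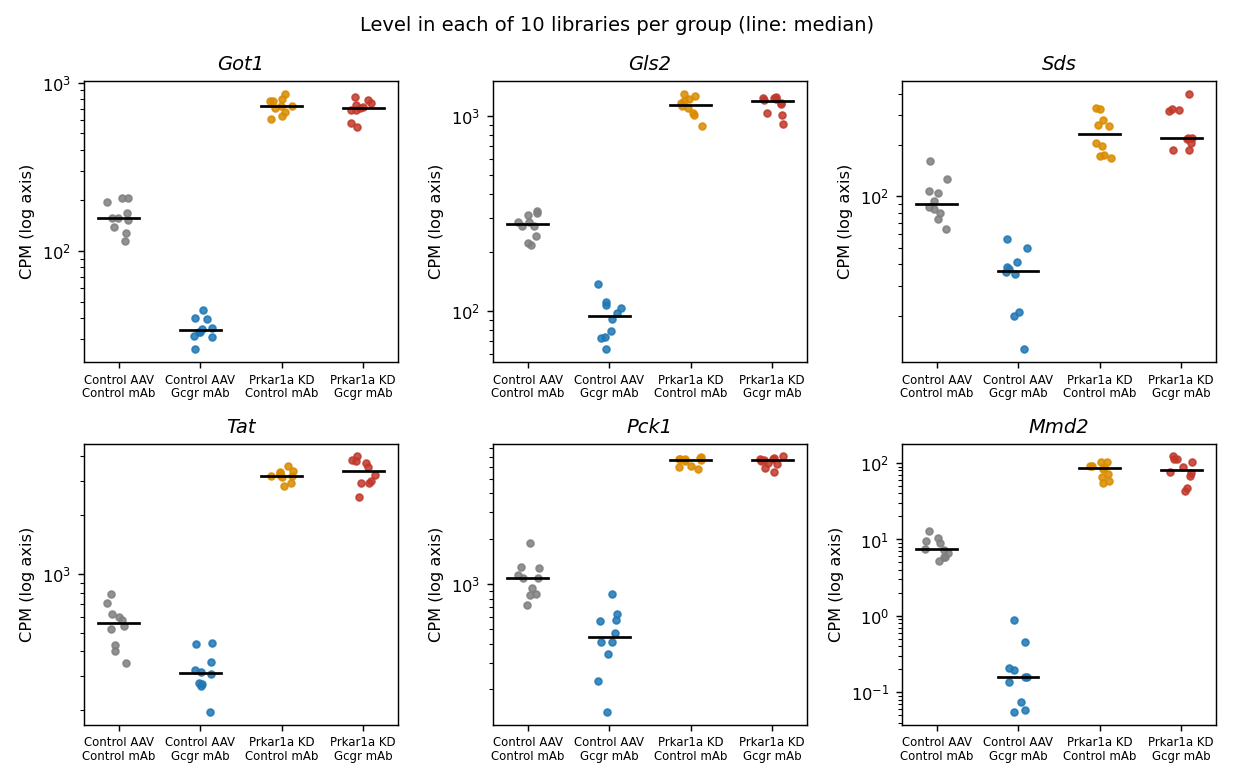
Level in CPM on a log axis of Got1, Gls2, Sds, Tat, Pck1 and Mmd2 in each library (points) of the 4 groups of 10, with the group median as a line. In each panel the median with Gcgr mAb lies below that with Control mAb on Control AAV, and the Prkar1a KD groups overlap; for Got1 their medians are 728 and 711 CPM.

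The amino acid list leaned upward with the antibody on the knockdown, with 48 of 59 values positive and 11 negative, and no member passed the test. An unadjusted p under 0.05 was reached by 4 of 59, all higher, against 3.69% of all genes. This count was 2 without any single one of replicates 1, 5, 7, 8 or 9 of Prkar1a KD + Control mAb or replicate 9 of Prkar1a KD + Gcgr mAb, and 9 without replicate 7 of Prkar1a KD + Gcgr mAb. It was 12 of 59 in the fit of the 2 compared groups alone, and 8 with both libraries that stand apart left out. Gpt2, mitochondrial alanine aminotransferase, had the smallest p. It ranged from 275 to 436 CPM (median 330) with Control mAb and from 344 to 547 CPM (median 386) with Gcgr mAb, and all 10 antibody libraries were above the control median. Its log2 fold change was 0.29 (95% interval 0.09 to 0.49, unadjusted p = 0.00516, adjusted p = 0.627). Mccc2, of leucine breakdown, differed by 0.18 (0.04 to 0.32, adjusted p = 0.641).

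In the urea cycle and glutamine list 5 of 12 tested members fell with the antibody and Control AAV, 0 were called on the knockdown, and the interaction was called for 4, all positive. Over all genes 5.27% fell with Control AAV and 2.74% had a called positive interaction. Arg1 (arginase, the last step of the cycle) ranged from 889 to 1180 CPM and from 448 to 760 CPM without the knockdown, with Control mAb and Gcgr mAb respectively. On the knockdown it ranged from 1330 to 2270 CPM (median 1790) and from 1490 to 2180 CPM (median 1850). Its interaction was 0.73 (adjusted p = 7.01e-05) and its effect on the knockdown 0.05 (95% interval -0.11 to 0.22). Cps1, the entry enzyme of the cycle, did not pass the test with Control AAV either (log2 fold change -0.30, adjusted p = 0.182) and had an effect of 0.06 on the knockdown (-0.22 to 0.34), with medians of 6180 and 6590 CPM. Ass1, argininosuccinate synthase, had a wide interval on the knockdown (-0.20, 95% interval -0.73 to 0.33). Replicate 5 of Prkar1a KD + Control mAb was at 5550 CPM for Ass1 against 1170 to 2350 CPM in the other 9, and without it the value was 0.13. Slc25a13, the mitochondrial aspartate and glutamate carrier, had the smallest p of the list, at 0.17 (0.04 to 0.30, unadjusted p = 0.0131).

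The amino acid transporters divided. Slc7a2, a carrier of basic amino acids, had medians of 511 and 253 CPM without the knockdown and of 2370 and 2500 CPM on it, with an interaction of 1.20 (adjusted p = 6.5e-06) and an effect on the knockdown of 0.13 (95% interval -0.11 to 0.36). Slc38a4 had an interaction of 0.64 (adjusted p = 0.00348) and an effect on the knockdown of 0.15 (-0.04 to 0.35). Slc38a2, a sodium-coupled neutral amino acid carrier, was not called with Control AAV (0.06, adjusted p = 0.791) and gave -0.06 on the knockdown (-0.27 to 0.16). Slc38a3, a glutamine carrier, fell by 0.41 on the log2 scale with Control AAV (adjusted p = 0.0175). On the knockdown it had a value of 0.25 that was not called (0.02 to 0.48, adjusted p = 0.723), and its interaction was 0.66 (adjusted p = 0.0137). Slc3a1, part of a cystine carrier, had negative values in both settings, -0.46 with Control AAV (adjusted p = 0.0304) and -0.39 on the knockdown (-0.67 to -0.11, adjusted p = 0.641), and its interaction of 0.07 was not called (adjusted p = 0.868). Of 27 tested transporters 3 rose and 5 fell with Control AAV, against 2.92% and 5.27% of all genes, and 0 were called on the knockdown.

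For glucose synthesis, 10 of 20 tested members fell with the antibody and Control AAV, against 5.27% of all genes, and 0 were called on the knockdown. The interaction was called for 9, all positive, against 2.74% of all genes. The list's median on the knockdown was 0.004. Pck1, phosphoenolpyruvate carboxykinase, is the pathway's classical cyclic AMP target. To show the promoter sequence behind this and other genes that fell, 30-base windows around the motif TGACGT or its reverse complement ACGTCA, the core of the cyclic AMP response element, were read from RefSeq promoters (GRCm38.p6, plus strand, 250 bases before to 50 after the start), with the motif in capitals. The 3 genes are those among 24 named genes that fell, of which 14 had a promoter in the table, whose promoter held the motif. Pde4b and Ugt1a9 were chosen after their values were seen.
Pck1, chr2:173152970-173152999: ggcctgccccttACGTCAgaggcgagcctc
Pde4b, chr4:102421508-102421537: tgatttggctgcACGTCAattttctcatct
Ugt1a9, chr1:88070691-88070720: aacctgaatttaACGTCActtgcaaacatg

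The motif begins 91 bases before the start in Pck1, 35 bases before it in Pde4b and 76 bases before it in Ugt1a9. Pde4b had further promoters in the table, none with the motif, and which of its promoters is used in these livers was not tested. It was found on either strand in 7.51% of all promoters in the table, in 10.96% of those of genes tested, in 12.39% of those of genes that fell with the antibody and Control AAV and in 5.08% of those that rose. Among promoters of genes that fell and had a called interaction the share was 15.95%. These shares describe letters in a window and not binding.

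Pck1 stood at a lowest, median and highest level of 723, 1090 and 1880 CPM with both controls and at 142, 443 and 854 CPM with Gcgr mAb alone. On the knockdown it stood at 5840, 6690 and 6970 CPM with Control mAb and at 5550, 6640 and 7020 CPM with Gcgr mAb. The lowest knockdown library with the antibody was thus above the highest library without the knockdown. Its log2 fold change was -1.27 with Control AAV (adjusted p = 4.15e-06) and -0.01 on the knockdown (95% interval -0.36 to 0.35), with an interaction of 1.26 (adjusted p = 0.00211). Pde4b, a phosphodiesterase that degrades cyclic AMP, had medians of 20.3 and 6.30 CPM without the knockdown and of 42.5 and 35.1 CPM on it, and an interaction of 1.44 (adjusted p = 4.65e-06). Ugt1a9, a glucuronosyltransferase, had medians of 42.5 and 12.6 CPM without the knockdown and of 427 and 400 CPM on it, and an interaction of 1.65 (adjusted p = 5.21e-05). Ugt1a genes share their 3′ exons, so reads may be divided among them and the Ugt1a9 value is uncertain.

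G6pc, the catalytic subunit of glucose 6-phosphatase, missed the threshold with Control AAV (-0.73, adjusted p = 0.0537) and gave -0.14 on the knockdown (95% interval -0.62 to 0.35). Its lowest library on the knockdown was replicate 7 with Gcgr mAb, at 133 CPM against 421 to 844 CPM in the other 9. Ppargc1a, a coactivator of the pathway, gave 0.07 on the knockdown (-0.25 to 0.39), with medians of 39.4 and 35.6 CPM. Igfbp1, a secreted binding protein of insulin-like growth factors, had medians of 85.9 CPM (57.0 to 221) and 59.8 CPM (31.9 to 110) and a value of -0.68 (-1.41 to 0.04, unadjusted p = 0.0652). Slc25a10, the dicarboxylate carrier, fell with Control AAV (-0.68, adjusted p = 0.000214), was 0.27 on the knockdown without being called (0.02 to 0.51), and had an interaction of 0.94 (adjusted p = 0.000598).

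Fatty acid oxidation and the respiratory chain followed the same course. Over all genes 5.27% fell with Control AAV and 2.74% had a called positive interaction. Of 34 tested genes of fatty acid oxidation and ketogenesis 16 fell with Control AAV and 0 were called on the knockdown. The median there was 0, and 11 interactions were called, all positive. Of 36 respiratory chain genes 12 fell with Control AAV and 0 were called on the knockdown, where their values ran from -0.01 to 0.10, and 5 interactions were called. Without replicate 2 of Control AAV + Gcgr mAb the falls with Control AAV numbered 7 of 36 and the called interactions 4. Acot1, an acyl-CoA thioesterase, was the lowest member on the knockdown, at -0.63 (95% interval -1.001 to -0.26, unadjusted p = 0.00138, adjusted p = 0.447). It ranged from 27.1 to 82.5 CPM (median 53.6) with Control mAb and from 23.9 to 61.9 CPM (median 29.9) with Gcgr mAb, so the groups overlapped.

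**Figure D3:**
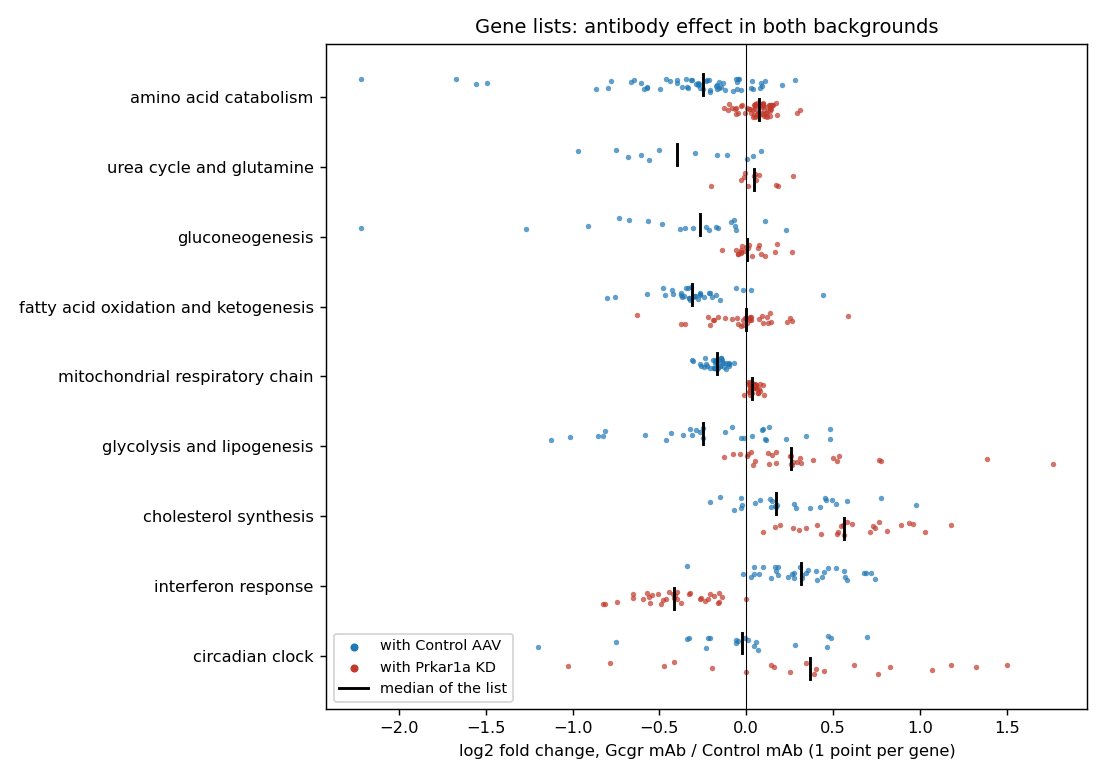
Log2 fold change of Gcgr mAb against Control mAb (x axis) for every tested member of 9 gene lists (y axis), with Control AAV in blue and Prkar1a KD in red; black bars are list medians. For amino acid catabolism the median is -0.25 with Control AAV and 0.07 with Prkar1a KD; for cholesterol synthesis it is 0.17 and 0.56, and for interferon response 0.31 and -0.42.

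The whole set of genes that the antibody changed with Control AAV was then read on the knockdown. The 677 genes that fell there had a median log2 fold change of -0.35 with Control AAV and of 0.04 on the knockdown, with quartiles of -0.01 and 0.10. Of them 205 kept the negative sign and 472 had a positive one, and the interaction was called for 308 (45.5%). The 375 genes that rose had medians of 0.46 and -0.01, with 176 of the same sign and 199 of the opposite sign, and the interaction was called for 110 (29.3%). Of the 524 genes with a called interaction 418 (79.8%) were called with Control AAV, which is 39.7% of the genes called there. The other 106 were called in neither antibody contrast. Leaving out replicate 2 of Control AAV + Gcgr mAb raised the calls with Control AAV to 1137, of which 885 were among the 1052, and left 530 called interactions. A fit of only the 20 Control AAV libraries called 608 genes, 570 of them among the 1052.

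**Figure D4:**
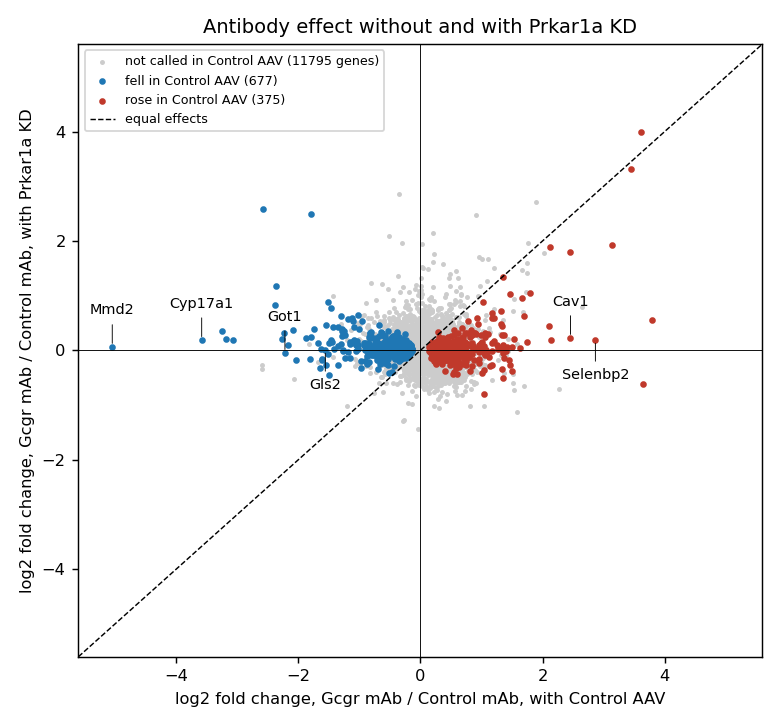
Log2 fold change of Gcgr mAb against Control mAb for each of 12847 genes with Control AAV (x axis) and with Prkar1a KD (y axis), with genes that fell (677, blue) or rose (375, red) with Control AAV in colour and the line of equal effects dashed. The coloured genes spread along the horizontal axis; Got1 lies at -2.22 on the x axis and -0.05 on the y axis.

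Among the 8 largest falls with Control AAV, Mmd2, a membrane protein of the progestin and adipoQ receptor family, had the largest called interaction. It stood at 5.16, 7.43 and 13.0 CPM (lowest, median, highest) with both controls and at 0.0554, 0.158 and 0.89 CPM with Gcgr mAb alone. On the knockdown it stood at 54.4, 86.5 and 103 CPM with Control mAb and at 42.5, 82.2 and 122 CPM with Gcgr mAb. The interaction was 5.11 ± 0.38 (SE, adjusted p = 2.67e-12) and the effect on the knockdown 0.06 (95% interval -0.29 to 0.42). Cyp17a1, a steroid hydroxylase and lyase, had medians of 43.7 and 3.54 CPM without the knockdown and of 319 and 266 CPM on it, with an interaction of 3.77 (adjusted p = 2.47e-08). Nptx1, a neuronal pentraxin, had medians of 0.721 and 0.127 CPM and then of 15.4 and 18 CPM, with an interaction of 2.56 (adjusted p = 0.000429). Tmem266, a transmembrane protein, had medians of 0.631 and 0.0602 CPM and then of 3.71 and 4.33 CPM, with an interaction of 3.27 (adjusted p = 2.68e-06). For these 4 genes every knockdown library with the antibody was above every library of both Control AAV groups.

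Gprc5b, Cyp2a22 and Cidea, also among the 8 largest falls, did not share that high level on the knockdown. Gprc5b, an orphan G protein-coupled receptor, had medians of 5.77 and 0.695 CPM without the knockdown and of 4.39 and 3.81 CPM on it, with an interaction of 3.61 (adjusted p = 0.00399). Cyp2a22, a cytochrome P450, had medians of 40.1 and 5.07 CPM and then of 8.59 and 12.5 CPM, with an interaction of 2.47 (adjusted p = 0.0375). Its knockdown values spread widely (1.94 to 41.9 and 2.31 to 32.8 CPM), and the 95% interval there was -0.79 to 1.20. Cidea, a lipid droplet protein, had medians of 39.6 and 4.51 CPM without the knockdown and of at most 0.108 CPM on it. It was too low in the knockdown livers for a fold change to be read, and its interaction was not called (adjusted p = 0.0777). Eno1b, an enolase-related gene, was among the largest interactions at 3.39 (adjusted p = 0.0358), and that value rested on replicate 10 of Control AAV + Control mAb, at 89.6 CPM beside a group median of 1.49 CPM. Without that library the interaction was 0.80 and was not called (adjusted p = 0.242). Without replicate 2 of Control AAV + Gcgr mAb it was 3.31 and also not called (adjusted p = 0.0502).

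Selenbp2, Cav1 and Smad9, 3 of the 8 largest rises with Control AAV, had low levels on the knockdown with either antibody. Selenbp2, a selenium-binding protein, had medians of 39.3 and 371 CPM without the knockdown and of 15.6 CPM (10.1 to 29.3) and 18.6 CPM (11.8 to 31.1) on it. Its interaction was -2.67 (adjusted p = 0.00146). Cav1, which encodes the coat protein of caveolae, had medians of 3.01 and 11.9 CPM and then of 1.61 and 1.83 CPM, with an interaction of -2.23 (adjusted p = 0.00305). Smad9, a transducer of bone morphogenetic protein signals, had medians of 2.53 and 13.2 CPM and then of 1.05 and 0.937 CPM, with an interaction of -1.95 (adjusted p = 0.0456). Without replicate 2 of Control AAV + Gcgr mAb the Smad9 interaction of -1.84 was not called (adjusted p = 0.0613). The major urinary proteins differed from these. Mup11, Mup16, Mup19 and Mup2 rose with Control AAV by 3.13, 2.12, 2.45 and 1.69 on the log2 scale (adjusted p of 0.0339, 0.0255, 0.0282 and 0.019). On the knockdown they gave uncalled values of 1.94, 1.89, 1.79 and 0.64, and no interaction was called (adjusted p of 0.635, 0.922, 0.816 and 0.36). Without replicate 2 of Prkar1a KD + Gcgr mAb the knockdown values of Mup11, Mup16, Mup19 and Mup2 were 0.92, 1.44, 1.39 and 0.34 (0.335). Mup19 had a median of 0 CPM in both knockdown groups, so its fold cannot be read, and without replicate 1 of Prkar1a KD + Gcgr mAb its value was 0.42 (0.417). Mup2 ranged from 70.5 to 181 CPM with Control mAb and from 43.7 to 435 CPM with Gcgr mAb, so the groups overlapped, and the Mup genes are near-identical copies whose reads may be divided among them.

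Genes of cholesterol synthesis leaned upward with the antibody on the knockdown. None of the 25 passed the test, but all 25 had a positive log2 fold change, from 0.10 to 1.18 with a median of 0.56, and 21 reached an unadjusted p under 0.05 (474 of 12847, or 3.69%, of all genes were higher at that level). These genes are controlled together, so the 21 are not independent, and the list was chosen with earlier results known. The knockdown itself lowered 24 of the 25 with Control mAb, with a median of -1.28. That comparison called 7223 genes (56.2%), of which 3462 fell (26.9%), and it shares its Prkar1a KD + Control mAb libraries with the antibody contrast, so a library low there would move both. Leaving out any 1 of the 20 libraries left between 19 and 22 genes at an unadjusted p under 0.05, with medians from 0.50 to 0.66. With Control AAV the list's median was 0.17. Replicate 2 of Control AAV + Gcgr mAb had a list level (mean log2 CPM relative to Prkar1a KD + Control mAb) of -0.01, against 1.34 to 2.44 in the other 9, and without it the median was 0.30, with 3 genes called higher rather than 1. The figures include that library, and a difference between the 2 settings was not tested for the list as a whole.

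Hmgcs1, the cytosolic HMG-CoA synthase, stood at a lowest, median and highest level of 23.0, 41.7 and 78.4 CPM with Control mAb and of 37.3, 74.1 and 187 CPM with Gcgr mAb on the knockdown. Of the antibody libraries 9 of 10 were above the control median, and the groups overlapped. The log2 fold change was 0.96 (95% interval 0.39 to 1.54, unadjusted p = 0.00166, adjusted p = 0.447). Without the knockdown Hmgcs1 had medians of 597 and 541 CPM, and every knockdown library lay below the lowest Control AAV + Control mAb library, at 337 CPM. Msmo1, a sterol methyl oxidase, differed by 1.03 (0.41 to 1.65, adjusted p = 0.447), with medians of 45.7 and 97.3 CPM.

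Glycolysis and lipogenesis leaned the same way. Of 29 tested members 26 had a positive log2 fold change on the knockdown, the median was 0.26, and 0 were called. An unadjusted p under 0.05 was reached by 10, all higher, against 3.69% of all genes. The 10 became 4 without replicate 8 of Prkar1a KD + Gcgr mAb, where the median was 0.20. The knockdown alone lowered 24 of the 29, against 26.9% of all genes. With Control AAV the median was -0.25, and -0.14 without replicate 2 of Control AAV + Gcgr mAb. Fads1, a fatty acid desaturase, ranged from 346 to 555 CPM (median 506) with Control mAb and from 518 to 691 CPM (median 598) with Gcgr mAb, and all 10 antibody libraries were above the control median. It fell with Control AAV (-0.82, adjusted p = 6.82e-09), had an uncalled value of 0.32 on the knockdown (95% interval 0.14 to 0.49, adjusted p = 0.447), and the interaction of 1.14 was called (adjusted p = 2.69e-08). Thrsp, a regulator of lipogenesis, stood at 1.99, 6.76 and 14.4 CPM with Control mAb and at 1.37, 16.3 and 85.3 CPM with Gcgr mAb, an uncalled difference of 1.76 (0.76 to 2.77, adjusted p = 0.447). Its highest value, in replicate 8, stayed below the lowest of Control AAV + Control mAb, 158 CPM. In the glycogen list of 15 genes Gys2, liver glycogen synthase, had a value of 0.38 (0.10 to 0.65, adjusted p = 0.641) and a called interaction of 0.69 (adjusted p = 0.0311).

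Interferon response genes leaned downward. All 34 tested members had a log2 fold change at or below 0 on the knockdown, with a median of -0.42. Of them 18 reached an unadjusted p under 0.05 (2.9% of all genes were lower at that level), and 0 were called. The count depended on single libraries. It was 9 without replicate 2 of Prkar1a KD + Control mAb, whose list level was the highest of its group, and 13 without replicate 2 of Prkar1a KD + Gcgr mAb, whose list level was the lowest of its group and without which the median was -0.31. Over all 20 such omissions the count ran from 9 to 24 and the median from -0.49 to -0.31. With Control AAV the list's median was 0.31 and 0 members were called. The interaction was called for 7 of the 34, all negative, against 1.34% of all genes, and for 5 without replicate 2 of Control AAV + Gcgr mAb. The knockdown itself raised 32 of the 34 with Control mAb, against 29.3% of all genes, using the same Prkar1a KD + Control mAb libraries.

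Mx2, a member of the list annotated in RefSeq as a transcribed pseudogene, ranged from 13.0 to 29.9 CPM (median 23.5) with Control mAb and from 9.41 to 21.9 CPM (median 15.3) with Gcgr mAb. None of the 10 antibody libraries was above the control median. The log2 fold change was -0.56 (95% interval -0.88 to -0.25, unadjusted p = 0.000872, adjusted p = 0.447), and the interaction of -0.96 was called (adjusted p = 0.0124). Oas1g, a 2′-5′ oligoadenylate synthetase gene, had a value of -0.82 (-1.38 to -0.25, adjusted p = 0.627) and an interaction of -1.50 (adjusted p = 0.0314), which was -1.39 and not called without replicate 2 of Control AAV + Gcgr mAb (adjusted p = 0.0506). Slfn8, a member of the Schlafen family chosen after its values were seen, had medians of 9.60 and 5.05 CPM and an interaction of -1.41 (adjusted p = 0.00541). Kupffer cell and endothelial markers had the same sign: the antibody's log2 fold change on the knockdown was negative for all 13 Kupffer cell and macrophage markers (median -0.37, with Clec4f alone at an unadjusted p under 0.05) and all 12 liver endothelial markers (median -0.15, 0 at that level). Other nonparenchymal lists were mixed. Values were negative for 10 of 12 stellate cell markers (median -0.05) and all 4 neutrophil markers (median -0.25). They were positive for 5 of 8 T and NK cell markers (median 0.23), 3 of 5 B and plasma cell markers (median 0.11) and 4 of 6 cholangiocyte markers (median 0.007). The 13 Kupffer cell and macrophage markers summed to 174 to 641 CPM (median 285) with Control mAb and to 163 to 425 CPM (median 239) with Gcgr mAb. Their part in the interferon values was not tested, and in whole liver fewer cells of a type and less RNA per cell cannot be told apart.

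**Figure D5:**
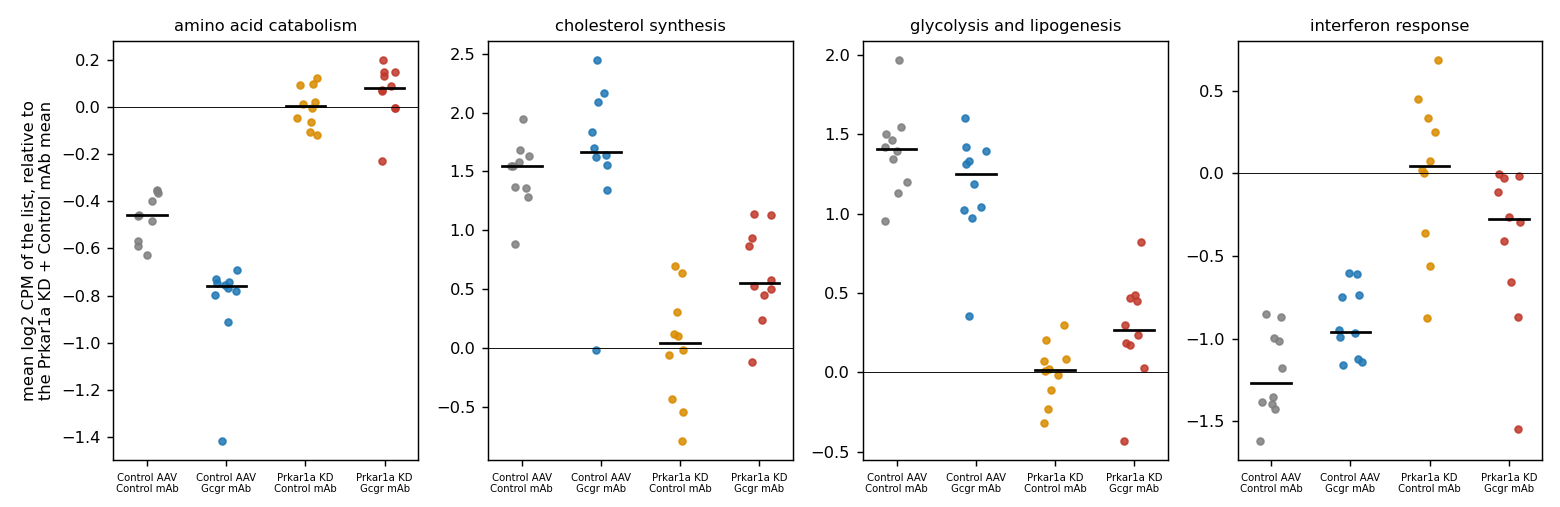
Mean log2 CPM over the tested members of 4 gene lists in each library (points), relative to the mean of Prkar1a KD + Control mAb, by group, with medians as lines. On the knockdown the antibody group medians are 0.08 for amino acid catabolism, 0.55 for cholesterol synthesis, 0.26 for glycolysis and lipogenesis and -0.28 for interferon response, and the groups overlap in every panel.

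The log2 fold changes of circadian clock genes on the knockdown ran from -1.03 to 1.5, with a median of 0.37. Of 20 tested, 6 were higher and 0 lower at an unadjusted p under 0.05, against 3.69% and 2.9% of all genes, and 0 were called. The count of higher genes was 9 or 10 without any single one of replicates 2 or 9 of Prkar1a KD + Control mAb or replicates 1 or 4 of Prkar1a KD + Gcgr mAb, and then 2 to 4 were lower. Tef, a clock output factor, ranged from 19.2 to 89.9 CPM (median 46.8) and from 26.2 to 121 CPM (median 90.3), a value of 0.76 (95% interval 0.17 to 1.34, adjusted p = 0.641). Cry2, a clock repressor, gave 0.40 (0.11 to 0.69, adjusted p = 0.641). The labels do not state a time of collection.

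Lists of signalling genes around the receptor and cyclic AMP had medians slightly below 0 with the antibody on the knockdown. Among 19 receptor and G protein genes, 14 cyclic AMP phosphodiesterases and 25 CREB and acute cyclic AMP response genes, 0, 0 and 0 were higher and 1, 1 and 1 lower at an unadjusted p under 0.05. Over all genes 3.69% were higher and 2.9% lower at that level. The medians of these lists were -0.05, -0.01 and -0.08, and 12 of 19, 8 of 14 and 15 of 25 values were negative. Grk5, a receptor kinase, had a value of -0.58 (95% interval -1.07 to -0.08, adjusted p = 0.649), Pde2a, a phosphodiesterase, one of -0.25 (-0.50 to -0.002), and Creb1, a transcription factor that PKA phosphorylates, one of -0.17 (-0.34 to -0.002). None of these was called.

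Some genes had the same sign with and without the knockdown. Cyp7a1, the rate-limiting enzyme of bile acid synthesis, rose with Control AAV (1.21, adjusted p = 0.00164) and had an uncalled value of 0.59 on the knockdown (95% interval 0.08 to 1.10, adjusted p = 0.649). Its medians on the knockdown were 93.4 and 137 CPM, and the interaction of -0.62 was not called (adjusted p = 0.32). H19, an imprinted noncoding RNA, rose with Control AAV (3.45, adjusted p = 0.0183; 1.79 and not called without replicate 2 of Control AAV + Gcgr mAb, adjusted p = 0.202) and had an uncalled value of 3.31 on the knockdown. That value rested on replicate 2 of Prkar1a KD + Gcgr mAb, at 41.9 CPM beside a group median of 0.634 CPM, and without it the value was 1.11. Cyp2c54, a cytochrome P450, had values of 1.46 with Control AAV (adjusted p = 0.0142) and 1.03 on the knockdown (0.14 to 1.91), with no called interaction (adjusted p = 0.712). Fetub, a secreted hepatokine, had values of 0.31 (adjusted p = 0.04) and 0.25 (0.05 to 0.45). For these 4 genes a difference between the 2 settings was not shown, and a like effect was not shown either.

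Markers of the liver's cell types were not called. Of 12 hepatocyte markers 0 were called on the knockdown, with a median of 0.07. Alb, serum albumin, ranged from 16400 to 27000 CPM with Control mAb and from 12300 to 35200 CPM with Gcgr mAb. Markers of stellate cells (12 tested), cholangiocytes (6), B and plasma cells (5), T and NK cells (8), neutrophils (4), erythroid cells (4), adipocytes (3) and pancreatic acinar cells (1) also had 0 called members.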

How the data were processed

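PolyA RNA from whole mouse liver was sequenced with a strand-specific kit, per the labels' protocols. The authors made, and deposited as such, 1 table of estimated counts (unit: expected count) per Entrez gene for the 40 samples used here, with no scaling recorded. In it 8.55% of values are not whole. The submitters' processing notes name bcl2fastq 2.17, FastQC and the builds GRCm38 and mm10, with the aligner and counter not given in the sources used here. Of 24475 genes 24375 matched a symbol in RefSeq's GRCm38.p6 table, from which gene positions come. Samples were grouped by their labels. Another table, of 50 samples of a separate experiment, was not analysed here.

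Counts were rounded, filtered with filterByExpr, scaled by the TMM method and fitted with edgeR 4.0.16 (glmQLFit, robust) in R 4.3.3 over all 40 samples, so that 1 estimate of the spread served every contrast. A gene was called at a Benjamini-Hochberg adjusted p under 0.05 over all 12847 genes tested. Intervals on log2 fold changes are nominal 95% intervals. Their SE was the size of the log2 fold change divided by the square root of the test's F statistic. It can fail for sparse genes: for Cfd the interaction had an SE of 0.00138, beside 1.35 on the knockdown and 0.379 with Control AAV. CPM are TMM-scaled. List levels use log2 CPM with a prior count of 2. The fitting code was tested on simulated data. Same-numbered samples did not deviate together, so the numbers were not used as pairs.

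The members and gene lists were chosen with earlier results of these data known. Genes named are PKA pathway and amino acid genes fixed by name, the 8 largest called rises, falls and interactions, and 2 genes of smallest p per list. The rises and falls are those with Control AAV. Rises, falls and interactions needed an average log2 CPM not under 1. Only rises and falls also needed at least 9 of a group's 10 libraries beyond the median of its comparison group. Genes outside these rules are said to be chosen after their values were seen. Alternatives were RLE scaling, no filter, a replicate block, limma-voom 3.58.1, DESeq2 1.42.0, fits of 2 groups, and leaving out each of the 20 knockdown libraries. Leaving out libraries that stand apart was added after the data were seen. Some results on single genes are not reported here.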

Additional observations from a re-analysis of the deposited data

Results flagged for a closer look

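The difference between the antibody's effects with and without the knockdown passed the test (edgeR interaction, adjusted p under 0.05) for 20 of 43 genes named by rule, 17 of them positive and 3 negative. Over all 12847 genes tested 524 passed (4.08%). Some of the 43 were picked for a called interaction or for a large effect with Control AAV, so the higher share follows in part from the choice. Among genes of amino acid, urea and glucose metabolism the log2 interactions were 2.17 for Got1, 1.57 for Gls2, 1.80 for Oat (1.805), 1.63 for Sds (1.627), 1.26 for Pck1, 1.20 for Slc7a2, 0.86 for Tat, 0.73 for Arg1, 0.71 for Gnmt and 0.64 for Slc38a4. Among the largest antibody effects they were 5.11 for Mmd2, 3.77 for Cyp17a1, 3.61 for Gprc5b, 3.39 for Eno1b, 3.27 for Tmem266, 2.56 for Nptx1, 2.47 for Cyp2a22, -1.95 for Smad9, -2.23 for Cav1 and -2.67 for Selenbp2.

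In 112 sets of 10 libraries examined, 10 had a library far from the rest by Dixon's criterion, which weighs the gap to the nearest library against the group's range, where chance flags about 1 in 20. In Prkar1a KD + Gcgr mAb, replicate 7 was lowest for G6pc (133 CPM), Gnmt (1710 CPM, the rest 2440 to 3050), Prkaca (49.9 CPM, the rest 61.4 to 75.6) and the amino acid catabolism level (-0.23, the rest -0.004 to 0.20), and replicate 2 was highest for Pkia (10.1 CPM) and Serpina4-ps1 (0.689 CPM, the rest at most 0.104). In Prkar1a KD + Control mAb, replicate 5 was highest for Ass1 (5550 CPM) and lowest for Eno1b (1.15 CPM, the rest 2.20 to 4.45), and replicate 9 was lowest for Gnmt (1770 CPM, the rest 2210 to 2770) and Slc38a4 (1170 CPM, the rest 1380 to 1600). What sets these libraries apart was not tested.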

How the results depend on the processing

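The antibody contrast on the knockdown called 0 genes under RLE scaling, no filter, the replicate block, limma-voom, DESeq2, a fit of its 20 libraries alone and with both libraries that stand apart left out, with smallest adjusted p of 0.439, 0.11, 0.0695, 0.537, 0.0745, 0.346 and 0.148. Leaving out each knockdown library in turn called 0 to 1 genes. The 1 was 4930404H11Rik, without replicate 10 of Prkar1a KD + Control mAb (log2 fold change 1.21, adjusted p = 0.0134, against 0.447 with all libraries). Genes at an unadjusted p under 0.05 numbered 846 and, with no filter and 19111 genes tested, 1285. In the fit of the 20 knockdown libraries alone they numbered 1209 of 12331 tested. Leaving out each knockdown library in turn gave 588 to 1052. With Control AAV 1052 genes were called, and 608 in the fit of its 2 groups alone. That fit differs in the number of samples, the genes tested (12361) and the estimate of the spread. Which of these lowered the count was not tested. Interactions numbered 524, between 391 and 676 when leaving out each knockdown library, and 372 to 752 under the other settings. The replicate block left 1039 calls with Control AAV and 477 interactions; of 10 knockdown pairs, 1 sample correlated best with its own number. Of 118 named genes, 0 were called on the knockdown in any setting and 14 changed sign in some setting while uncalled. Depth limits genes under about 1 CPM, such as Cidea and Tmem266.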

Other observations

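Cell cycle genes leaned upward with the antibody on the knockdown, with 26 of 32 tested members positive, a median log2 fold change of 0.10 and 4 at an unadjusted p under 0.05, all higher (3.69% of all genes). Mcm4, a subunit of the replicative helicase, ranged from 4.71 to 8.37 CPM (median 5.59) with Control mAb and from 6.05 to 13.2 CPM (median 8.38) with Gcgr mAb. All 10 antibody libraries were above the control median. Its value of 0.56 was not called (95% interval 0.27 to 0.84, adjusted p = 0.447), while the interaction of 0.72 was (adjusted p = 0.0337).

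Endoplasmic reticulum chaperones leaned downward, with 17 of 18 negative, a median of -0.19 and 3 at an unadjusted p under 0.05, all lower (2.9% of all genes). Sdf2l1 and Syvn1, of protein folding and degradation there, had values of -0.50 (95% interval -0.97 to -0.03) and -0.37 (-0.72 to -0.01), and neither was called. With Control mAb on the knockdown the highest library was at 52 CPM for Sdf2l1 (median 16.5) and 135 CPM for Syvn1 (median 52). Leaving out a single knockdown library made the values as small as -0.215 for Sdf2l1 and -0.163 for Syvn1. Lepr, the leptin receptor, chosen after its values were seen, ranged from 16.1 to 111 CPM (median 46.5) with Control mAb and from 8.54 to 39.4 CPM (median 25.9) with Gcgr mAb. None of the 10 antibody libraries was above the control median, and the value of -0.93 was not called (-1.48 to -0.39, adjusted p = 0.447).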
